A study of Mus musculus with 8 samples.

Results

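The neutrophil-attracting CXC chemokines Cxcl1, Cxcl2, Cxcl3, Cxcl5 and Ppbp were followed across tumor-associated macrophages (TAMs) of WT and Colec11−/− mice. They were found by their gene symbols, and all 5 were among the 16786 genes that had a value in the 7 complete sample tables. CXC chemokines of this type carry a glutamate-leucine-arginine motif ahead of their paired cysteines and act on the G protein-coupled receptor CXCR2, through which they draw neutrophils out of the blood. Macrophages make them within hours of a signal through Toll-like receptors, IL-1 or TNF, largely through NF-κB, and their mRNAs are short-lived. In tumors they are known for recruiting neutrophils and other CXCR2-bearing myeloid cells and for promoting angiogenesis.

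CD45+F4/80+ cells were sorted from subcutaneous B16 melanomas on day 14 after injection, and their RNA was sequenced in 1 library per mouse. TAM-WT denotes the 4 libraries from WT littermates and TAM-KO the 4 libraries from mice homozygous for the Colec11 deletion, all on the C57BL/6 strain and, per the study's methods, young adult males. Colec11 encodes collectin-11, a soluble pattern recognition lectin of the complement system, and the deletion was carried by every host cell but not by the injected tumor cells. The study asked how TAMs differ when the host lacks collectin-11. By mouse, the reads on genes came to 16960268, 17122183, 16906782 and 17280267 for TAM-WT and, for replicates 2 to 4 of TAM-KO, to 16225362, 16739028 and 16994308. For TAM-KO replicate 1 the deposited table skips 5311 consecutive genes, and it held 10607640 reads on the 12572 genes it shares with the others. Of the 5 chemokines, Cxcl1 alone was among the skipped genes, and its value for TAM-KO replicate 1 was taken from the series-wide table, whose genes had been selected for differences. The values of TAM-KO replicate 1 for Lyz2, Cxcr2, Cxcl10, Il1a, Nfkbia, Gzmb, Mmp8, Csf3r and Clcn5, and part of its sums over marker lists, come from there too. The deleted gene, Colec11, had 1, 4, 0 and 1 counts in TAM-WT and 1, 1, 1 and 1 counts in TAM-KO, and since it was near 0 in TAM-WT too the genotype could not be checked from these counts.

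Macrophage genes were abundant in every library. Lyz2, the lysozyme of myeloid cells and the most abundant of 10 macrophage markers, ranged from 4119 to 8944 FPKM (fragments per kilobase of transcript, scaled to the depth of the library), and the markers summed to between 14670 and 17120 FPKM in TAM-WT and between 12050 and 14790 FPKM in TAM-KO replicates 2 to 4. Of the 10, 0 passed at an adjusted p of at most 0.05 by edgeR, 3 by DESeq2 and 0 by limma, and 3 had an unadjusted p under 0.05 by edgeR, where over all genes tested the shares were 9.81%, 18.2%, 10.7% and 30.7%. These shares are the background for every list of genes below. Melanoma genes were present too. Pmel, a melanosome structural protein, was at 761, 1322, 565 and 530 FPKM in TAM-WT and at 1183, 1478, 1334 and 1092 FPKM in TAM-KO replicates 1 to 4. In such bulk samples fewer cells of a type and less RNA per cell cannot be told apart.

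Cxcl2, also called MIP-2, was the most abundant of the chemokines. In replicates 1 to 4 of TAM-WT it was at 198, 1123, 1386 and 942 FPKM. In TAM-KO it was at 779, 76.3, 132 and 367 FPKM. TAM-KO replicate 1 lay within the TAM-WT range, TAM-WT replicate 1 lay within the TAM-KO range, and the groups overlapped. The TAM-WT mean was 912 ± 510 FPKM (SD, n = 4), and that of TAM-KO was 339 ± 320 FPKM (SD, n = 4). In reads this meant between 2754 and 19308 counts in a TAM-WT library and between 1031 and 11100 counts in a TAM-KO library, so that counting error was small beside the spread between mice.

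Cxcl1, known as KC in the mouse, was lower in level than Cxcl2 in every library. Its FPKM values were 33.8, 408, 407 and 127 in TAM-WT and 113, 7.54, 15.4 and 51.4 in TAM-KO, the first of the latter being the one from the series-wide table. TAM-WT replicates 2 and 3 stood above all other libraries, and TAM-WT replicate 1 lay below both TAM-KO replicate 1 and TAM-KO replicate 4. The TAM-WT mean was 244 ± 193 FPKM (SD, n = 4), and that of TAM-KO 46.9 ± 48.1 FPKM (SD, n = 4), or 24.8 ± 23.4 FPKM (SD, n = 3) without TAM-KO replicate 1.

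Ppbp encodes the precursor of CXCL7 (NAP-2), which is known mainly from platelet granules. It was at 25.9, 62.7, 145 and 25.8 FPKM in TAM-WT and at 31.3, 7.03, 8.35 and 17.3 FPKM in TAM-KO. TAM-KO replicates 2 to 4 lay below every TAM-WT library, and TAM-KO replicate 1 lay above TAM-WT replicates 1 and 4. The means were 64.9 ± 56.3 FPKM (SD, n = 4) and 16.01 ± 11.2 FPKM (SD, n = 4). Cxcl3, a close relative of Cxcl2 with the same receptor, was at 17.9, 60.5, 137 and 30.5 FPKM in TAM-WT and at 38.7, 4.34, 8.68 and 16.7 FPKM in TAM-KO. Its pattern was that of Ppbp, with 3 of the 4 TAM-KO libraries below the lowest TAM-WT library and TAM-KO replicate 1 above TAM-WT replicates 1 and 4. TAM-WT averaged 61.5 ± 53.6 FPKM (SD, n = 4), and TAM-KO averaged 17.1 ± 15.3 FPKM (SD, n = 4).

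Cxcl5, known as LIX in the mouse and made chiefly by epithelial and stromal cells, was close to the limit of detection. It had 4, 22, 39 and 6 counts in TAM-WT and 11, 0, 1 and 2 counts in TAM-KO, and it did not pass the filter on low counts. The counts correspond to 0.17, 0.91, 1.65 and 0.25 FPKM in TAM-WT and to 0.45, 0, 0.04 and 0.08 FPKM in TAM-KO. The groups overlapped through TAM-KO replicate 1, which was the third of the 8 libraries in order.

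**Figure D1:**
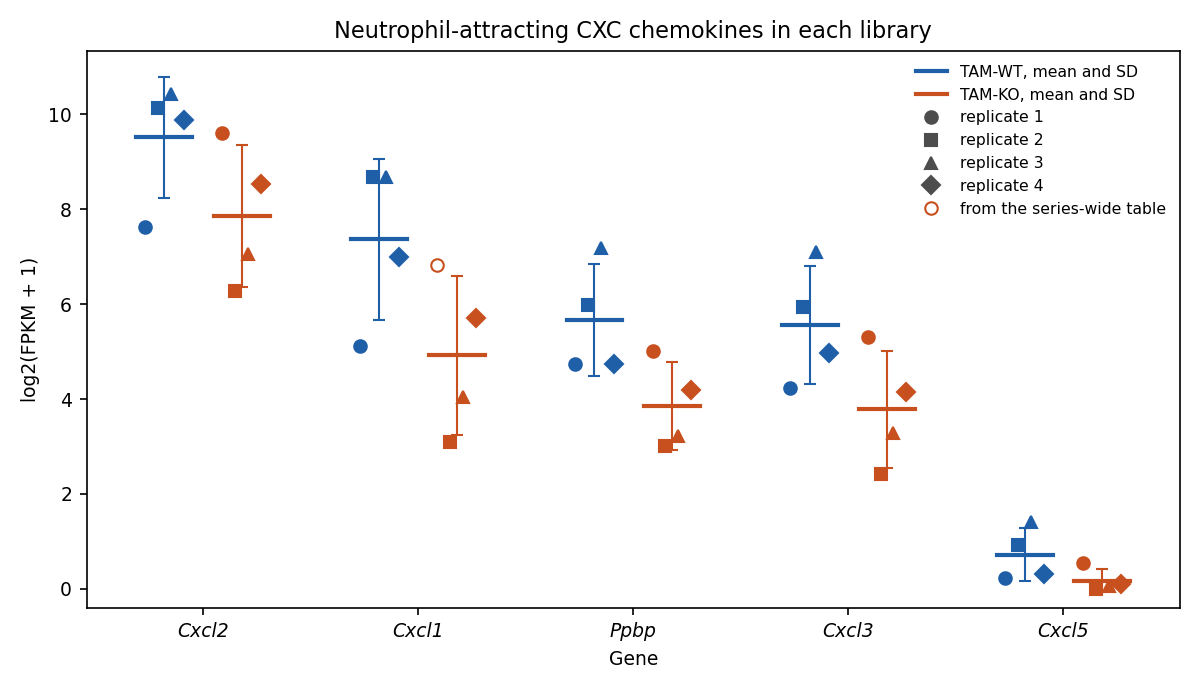
Level of each chemokine as log2(FPKM + 1) (vertical axis) by gene (horizontal axis), with 1 symbol per library, bars for the group means and whiskers for the SD (n = 4 each); the open circle is the Cxcl1 value of TAM-KO replicate 1 from the series-wide table. For all 5 genes TAM-KO replicates 2 and 3 are the lowest libraries, and the groups overlap.

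The difference between the groups was then tested across all genes by the quasi-likelihood test of edgeR on the counts, and each p was adjusted by the Benjamini-Hochberg method for the number of genes in the fit. The test covered 12412 genes and passed 1218 (9.81%), 650 of them lower in TAM-KO (5.24%) and 568 higher (4.58%). This total itself depended on single libraries, with 77 genes when TAM-KO replicate 2 or 3 was left out, 682 for TAM-KO replicate 1, 151 and 416 for TAM-WT replicates 3 and 4, and 2755 for TAM-WT replicate 2. Of the 5 chemokines, 4 passed the filter on low counts, and 0 of these 4 passed the test. By the same test 3 of the 4 had an unadjusted p under 0.05, as did 30.7% of all genes tested. DESeq2 passed 2 of the 4, against 18.2% of all genes, and limma on log2(FPKM + 1) passed 0 of the 4, against 10.7% of all genes. With TAM-KO replicate 1 filled from the series-wide table edgeR passed 0 of the 4, against 8.95% of all genes.

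The log2 fold change of TAM-KO against TAM-WT was -1.55 (SE 0.74, adjusted p = 0.188 from edgeR) for Cxcl2 and -1.98 (SE 0.73, adjusted p = 0.105 from edgeR) for Cxcl3, each on 4 against 4 libraries. For Ppbp it was -2.15 (SE 0.66, adjusted p = 0.0645 from edgeR), also on 4 against 4. The 3 estimates are 2.93, 3.93 and 4.43-fold lower levels in TAM-KO, none of them beyond the spread between mice at the threshold. Cxcl1 had -3.38 (SE 0.99, adjusted p = 0.0647 from edgeR), but on 4 against 3 libraries, since its count for TAM-KO replicate 1 is not in that library's own table. With the series-wide value filled in, its log2 fold change was -2.50 (SE 0.93, adjusted p = 0.109 from edgeR), a 5.65-fold in place of a 10.4-fold lower level. Only the filled value rests on the same libraries as those of the other 3 genes. TAM-KO replicate 1 moved those genes likewise, as without it the log2 fold changes were -2.35 for Cxcl2, -2.75 for Cxcl3 and -2.69 for Ppbp (adjusted p of 0.0910, 0.0710 and 0.0640 from edgeR). Cxcl5, tested without the filter on low counts, had -2.41 (SE 0.90, adjusted p = 0.123 from edgeR). With Cxcl1 filled, the standard errors exceed most of the gaps between these estimates, so that no order by fold change can be read from them.

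Single libraries of both groups moved the estimates. Without TAM-WT replicate 3 they were nearer to 0 for Cxcl3 (-1.14, adjusted p = 0.318 from edgeR) and Ppbp (-1.30, adjusted p = 0.176 from edgeR), and without TAM-KO replicate 4 that of Cxcl1, on 4 against 2 libraries, was farther from it (-4.54, adjusted p = 0.0535 from edgeR). Without TAM-WT replicate 1 both Cxcl1 (-3.75, adjusted p = 0.0303) and Ppbp (-2.42, adjusted p = 0.0478) passed in edgeR, while Cxcl2 and Cxcl3 did not. Over all genes 1160 passed in that fit. DESeq2 on all libraries likewise passed Cxcl1 (adjusted p = 0.0117) and Ppbp (adjusted p = 0.0335). For Cxcl1 these calls rest on 3 TAM-KO libraries, and with the filled value and without TAM-WT replicate 1, a fit chosen after seeing the data, its adjusted p from edgeR was 0.0634. Over its 19 alternative fits the adjusted p of Cxcl1 ranged from 0.0018 to 0.279, and over those of Ppbp from 0.0335 to 0.183. All 4 tested chemokines had a lower estimate in TAM-KO in each of the 19 alternative fits. Among these, the fit with 7 libraries for every gene and that without TAM-KO replicate 1 are the same fit.

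An exact two-sided permutation test on log2(FPKM + 1), which can give no p below 0.0286 with 4 against 4 libraries, was run for each of the 5 genes. The exact p was 0.114 for Cxcl1, 0.171 for Cxcl2, 0.114 for Cxcl3, 0.143 for Cxcl5 and 0.0857 for Ppbp, all unadjusted. With 3 TAM-KO libraries Ppbp reached 0.0286, the smallest p that this exact test allows. For Cxcl1, Cxcl2, Cxcl3 and Cxcl5 the exact p with 3 TAM-KO libraries was 0.0857, 0.0857, 0.0571 and 0.0857.

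The order of the chemokines by level was nearly the same in every library. Cxcl2 exceeded Cxcl1 in 8 of 8 libraries by FPKM, by a factor between 2.75 and 10.1. Cxcl1 exceeded Ppbp in 8 of 8, although in TAM-KO replicate 2 by a factor of only 1.07. Ppbp and Cxcl3 did not differ beyond their spread, with Ppbp higher in 5 of 8 libraries and a ratio between 0.81 and 1.62. Cxcl3 exceeded Cxcl5 in 8 of 8, by at least 66.5-fold in the 7 libraries where Cxcl5 was above 0. Cxcl2 was one of the most abundant mRNAs of these cells, with ranks by FPKM of 72, 55 and 90 among the 16786 genes for replicates 2 to 4 of TAM-WT, and of 439 for replicate 1. Its ranks were 1212, 659 and 243 for replicates 2 to 4 of TAM-KO.

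Taken by library, the 5 chemokines summed to 276, 1655, 2077 and 1125 FPKM in TAM-WT and to 963, 95.2, 164 and 453 FPKM in TAM-KO. Cxcl2 made up between 66.7% and 83.7% of this sum. The share of Cxcl1 was 24.7% and 19.6% in TAM-WT replicates 2 and 3 and between 7.92% and 12.3% in the other 6 libraries. The 2 libraries richest in the chemokines as a whole were thus those in which Cxcl1 took the largest share.

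The 5 chemokines varied together across libraries. Over the 8 libraries, Pearson's r of log2(FPKM + 1) lay between 0.803 and 0.979 for the 10 pairs, with a median of 0.938, and Spearman's rho between 0.857 and 1. All 10 pairs passed by exact permutation with adjustment over the 10 pairs, with adjusted p of at most 0.0119 for r and 0.0107 for rho. As background, of the 44109528 pairs of the 9393 other genes tested on 4 against 4 libraries 5.94% had an r of at least 0.803 and 0.535% one of at least 0.938, while 3.41% had a rho of at least 0.857. By r of log2(FPKM + 1) the closest pair was Cxcl3 and Ppbp (r = 0.979, exact p = 4.96e-05, adjusted p = 0.000124; rho = 0.976, exact p = 0.000397, adjusted p = 0.000992). Cxcl1 and Cxcl2 followed (r = 0.976, exact p = 4.96e-05, adjusted p = 0.000124; rho = 0.976, exact p = 0.000397, adjusted p = 0.000992). The loosest by this measure was Cxcl2 and Cxcl5 (r = 0.803, exact p = 0.0119, adjusted p = 0.0119; rho = 0.952, exact p = 0.00114, adjusted p = 0.0019), a pair in which Cxcl5 rests on few counts. Other measures gave other pairs, with rho highest for Cxcl3 and Cxcl5 (1) and lowest for Cxcl1 and Ppbp (0.857), and r of log2 CPM lowest for Cxcl2 and Ppbp (0.885). Without the 2 libraries farthest from the median of the first gene, r of log2(FPKM + 1) over the remaining 6 lay between 0.696 and 0.972.

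To set aside the difference between the groups, the deviations of each library from its genotype mean were correlated as well. Within genotypes r lay between 0.704 and 0.969 with a median of 0.905, and 10 of 10 pairs passed by exact permutation within genotypes, with adjusted p of at most 0.0347. Of all such pairs of other genes 9.85% had an r within genotypes of at least 0.704, and 1.08% one of at least 0.905. Reads of Cxcl2 and Cxcl3 could be split between these genes in small part, as 61 of the 967 runs of 50 bases in protein-coding Cxcl3 transcripts also occur in Cxcl2, while Cxcl1 and Ppbp share 0 such runs with any other gene.

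**Figure D2:**
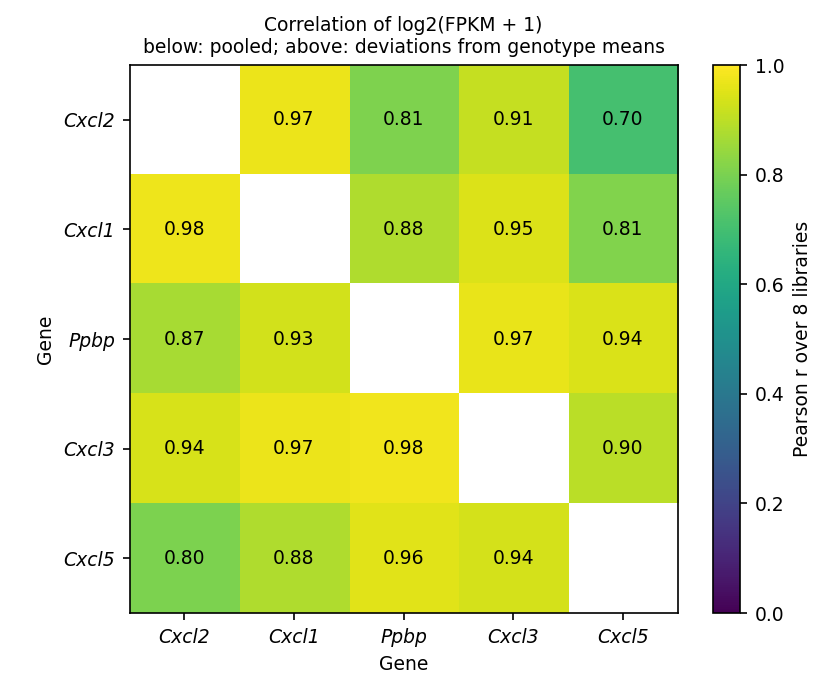
Pearson's r of log2(FPKM + 1) over the 8 libraries for each pair of chemokines (both axes list the genes), below the diagonal over all libraries and above it for deviations from the genotype means. The lowest r of each kind is that of Cxcl2 and Cxcl5, at 0.803 and 0.704.

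The genes lie in one cluster on chromosome 5. In RefSeq on GRCm38.p6, the build of the deposited tables, they run from Cxcl5 (NCBI gene 20311, chr5:90759298-90761625) through Ppbp (57349, chr5:90768518-90770063), Cxcl3 (330122, chr5:90786101-90788093) and Cxcl1 (14825, chr5:90891245-90893121) to Cxcl2 (20310, chr5:90903899-90905938), all on the plus strand. The 146641 bases from Cxcl5 to Cxcl2 hold 7 protein-coding genes, of which the other 2 are Pf4 and Cxcl15. Pf4, the platelet factor that lacks the motif for CXCR2 binding, lies between Ppbp and Cxcl3 and was at 1592, 1596, 2224 and 1715 FPKM in TAM-WT and 1489, 749, 906 and 1488 FPKM in TAM-KO. Its log2 fold change of -0.71 (SE 0.24, adjusted p = 0.0829 from edgeR) did not pass. TAM-KO replicates 2 and 3 were the lowest libraries for Pf4, as for the 5 chemokines, but TAM-WT replicate 1 was not low.

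**Figure D3:**
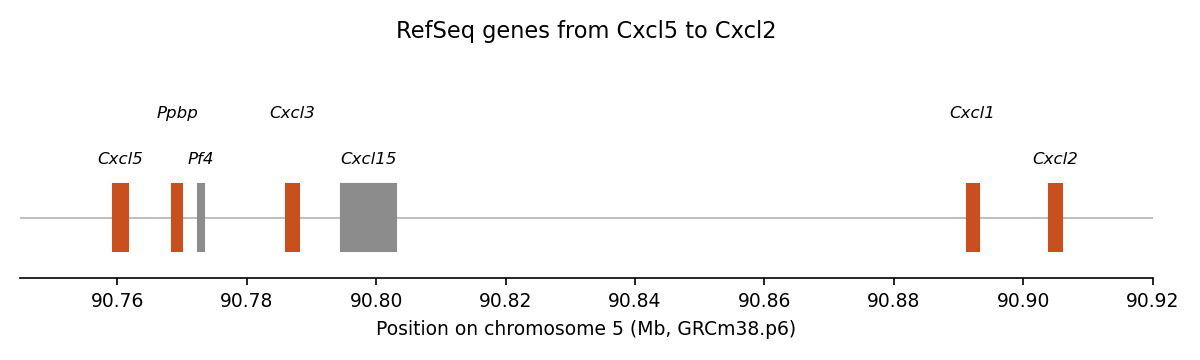
Position of the RefSeq genes between Cxcl5 and Cxcl2 on chromosome 5 (horizontal axis, Mb, GRCm38.p6), with the 5 chemokines in orange and Pf4 and Cxcl15 in grey. Cxcl1 and Cxcl2 lie apart from the other 3 chemokines.

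Because the chemokines varied together, the 120 bases before their RefSeq starts (GRCm38.p6, plus strand) were compared for the letters GGAATTTCC, found in many NF-κB sites, and ATAAAA, part of many TATA boxes, which were chosen after the sequences were seen. Capitals mark either motif on either strand; RefSeq gave a promoter for 4 of the 5 genes, without Cxcl5.
Cxcl1, chr5:90891125-90891244: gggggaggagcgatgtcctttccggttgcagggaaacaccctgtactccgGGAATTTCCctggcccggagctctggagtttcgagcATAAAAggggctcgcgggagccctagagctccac
Cxcl2, chr5:90903779-90903898: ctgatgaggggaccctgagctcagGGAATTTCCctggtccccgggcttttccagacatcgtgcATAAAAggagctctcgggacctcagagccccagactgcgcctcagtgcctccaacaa
Cxcl3, chr5:90785981-90786100: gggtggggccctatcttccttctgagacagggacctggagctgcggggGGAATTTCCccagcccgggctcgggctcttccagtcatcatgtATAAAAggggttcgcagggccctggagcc
Ppbp, chr5:90768398-90768517: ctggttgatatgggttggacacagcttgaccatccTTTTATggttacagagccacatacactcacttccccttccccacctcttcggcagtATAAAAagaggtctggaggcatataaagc
Cxcl1, Cxcl2 and Cxcl3 each hold GGAATTTCC once, starting 70, 96 and 72 bases before the gene's first base, and Ppbp does not hold it in this window. Of 32851 RefSeq promoters of 300 bases, 104 hold it on either strand (0.317%), 46 of them within the same 120 bases (0.14%). ATAAAA starts 34, 57, 29 and 29 bases before the first base of Cxcl1, Cxcl2, Cxcl3 and Ppbp, and 8.3% of all promoters hold it in the same 120 bases on either strand. A match of letters is a description and shows no binding.

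The 3′ ends differed in their AU-rich elements, the sites through which proteins such as tristetraprolin hasten the decay of chemokine mRNA. In GENCODE transcripts (release M21) the pentamer ATTTA occurs 11 times in the 734 bases of the Cxcl2 3′ UTR, 7 times in the 592 bases of Cxcl1, 5 times in the 645 bases of Cxcl3, 5 times in the 1111 bases of Cxcl5 and once in the 656 bases of Ppbp. Among 3′ UTRs of like length as many copies were held by 1 of 2373 for Cxcl2, which is Cxcl2 itself, and by 0.413% of 2179 for Cxcl1 and 3.03% of 2343 for Cxcl3. For Cxcl5 and Ppbp these shares were 13.2% of 2681 and 59.9% of 2354. The nonamer TTATTTATT, searched on the sense strand and overlapping the pentamer, occurs 4 times in Cxcl2, 2 times in Cxcl1 and 1 time in Cxcl3, and 0 times in Cxcl5 and Ppbp; between 3.81% and 4.38% of 3′ UTRs as long as those of the first 3 hold it. The first copy is shown in capitals within 30 bases.
Cxcl1: atttatgtatTTATTTATTccacaaagtgt
Cxcl2: gagagttcacTTATTTATTtatctatgtat
Cxcl3: ttatcagttgTTATTTATTgaaatggtctt

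The receptors of these chemokines were hardly expressed in the sorted cells. Cxcr2 was at 0.16, 0.15, 0.49 and 0.16 FPKM in TAM-WT and at 2.37, 0.31, 0.25 and 0.66 FPKM in TAM-KO replicates 1 to 4. Its log2 fold change on 4 against 3 libraries was 0.69 (SE 0.57, adjusted p = 0.450 from edgeR). With TAM-KO replicate 1 filled from the series-wide table it was 1.80 (SE 0.79, adjusted p = 0.157 from edgeR). Cxcr1, the other receptor of the family, had at most 3 counts (0.07 to 0.20 FPKM) in any of the 7 complete libraries. In TAM-KO replicate 1 it was at 0.47 FPKM. The decoy receptor Ackr1 had no value. Of 10 other CXC ligands 8 had a value and 5 were tested, of which 1 was higher in TAM-KO and 0 were lower by edgeR, with a median log2 fold change of 0.92 against 0.00163 over all genes tested. DESeq2 passed 2 of the 5 and limma 1, and 3 had an unadjusted p under 0.05 by edgeR, where over all genes 9.81% passed by edgeR, 18.2% by DESeq2 and 10.7% by limma, and 30.7% had an unadjusted p under 0.05. The one that passed was Cxcl10, an interferon-induced ligand of CXCR3 on T cells and NK cells, at 119, 96.1, 92.4 and 134 FPKM in TAM-WT and 184, 204, 301 and 169 FPKM in TAM-KO (log2 fold change 0.92, SE 0.20, adjusted p = 0.0324 from edgeR on 4 against 3 libraries). Every TAM-KO library was above every TAM-WT library for this gene, and its estimate was opposite in sign to those of the 5 neutrophil-attracting chemokines.

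Among the inducers of these chemokines and their receptors, 9 of 10 genes were tested, 1 was lower in TAM-KO, 0 were higher, and the median log2 fold change was -0.50. DESeq2 passed 2 of the 9 and limma 1, and 3 had an unadjusted p under 0.05 by edgeR. Il1a, which encodes the alarmin IL-1α, passed by edgeR. It was at 5.85, 26.5, 37.3 and 18.8 FPKM in TAM-WT and at 7.75, 1.46, 2.06 and 5.14 FPKM in TAM-KO, with a log2 fold change of -3.05 (SE 0.70, adjusted p = 0.0362 from edgeR on 4 against 3 libraries). TAM-WT replicate 1 again lay within the TAM-KO range and TAM-KO replicate 1 was the highest of its group. Tnf, the most abundant of the list and named after its values were seen, was at 57.8, 207, 244 and 189 FPKM in TAM-WT and 129, 39.2, 54.7 and 75.7 FPKM in TAM-KO. Its adjusted p from edgeR was 0.0865, short of the threshold.

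Of 12 genes for NF-κB subunits and their feedback regulators, all 12 were tested and 0 passed by edgeR, with 5 at an unadjusted p under 0.05, against 4 that passed by DESeq2 and 2 by limma. The median log2 fold change was -0.13. Of the 12 estimates 7 were negative. Rela, the p65 subunit, was between 38.9 and 45.5 FPKM in all 8 libraries. Nfkbia, the inhibitor IκBα that NF-κB itself induces, was at 98.6, 331, 400 and 294 FPKM in TAM-WT and at 233, 73.7, 92.0 and 152 FPKM in TAM-KO (log2 fold change -1.51, SE 0.48, adjusted p = 0.0774 from edgeR on 4 against 3 libraries). With TAM-KO replicate 1 filled from the series-wide table its log2 fold change was -1.155 (adjusted p = 0.136 from edgeR). Tnfaip3, the deubiquitinase A20 that ends the same signal, was at 39.4, 169, 205 and 148 FPKM in TAM-WT and at 80.2, 19.4, 31.2 and 52.3 FPKM in TAM-KO (adjusted p = 0.0654 from edgeR). Other regulators of the list had positive estimates, such as Bcl3 (0.74, SE 0.23, adjusted p = 0.0735 from edgeR on 4 against 3 libraries) and Tnip1 (0.33, SE 0.11, adjusted p = 0.0696 from edgeR). With TAM-KO replicate 1 filled, Bcl3 was at 0.60 (adjusted p = 0.128 from edgeR). No test compared subunits with regulators, and all 5 genes were named after their values were seen.

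Of the 7 genes of mRNA decay 1 was lower in TAM-KO and 0 were higher, with a median log2 fold change of -0.24. DESeq2 passed 4 of the 7 and limma 1, and 4 had an unadjusted p under 0.05 by edgeR. The one that passed was Zfp36l1, a relative of tristetraprolin, at 79.9, 77.8, 101 and 79.4 FPKM in TAM-WT and 48.3, 61.4 and 63.8 FPKM in TAM-KO replicates 2 to 4 (log2 fold change -0.66, SE 0.16, adjusted p = 0.0436 from edgeR on 4 against 3 libraries). Zfp36, which encodes tristetraprolin and was named after its values were seen, did not pass (-0.90, SE 0.25, adjusted p = 0.0521 from edgeR). Of 10 proteases, some of which process CXC chemokines, 6 were tested and 0 passed by edgeR, with 3 at an unadjusted p under 0.05, against 2 by DESeq2 and 1 by limma.

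Immediate early and stress genes are induced within minutes of a signal or of cell stress, and their order over libraries was close to that of the chemokines. All 16 were tested, 3 were lower in TAM-KO and 0 higher by edgeR, and 16 of 16 estimates were negative, with a median log2 fold change of -1.10. DESeq2 passed 12 of the 16 and limma 3, and 13 had an unadjusted p under 0.05 by edgeR, against 18.2%, 10.7% and 30.7% of all genes. Those that passed by edgeR were Egr2 (-1.73, SE 0.31, adjusted p = 0.0220), Egr3 (-1.26, SE 0.29, adjusted p = 0.0357) and Atf3 (-1.42, SE 0.36, adjusted p = 0.0465), all transcription factors and all on 4 against 3 libraries, as were 14 of the 16 genes. In TAM-KO replicate 1 they were at 28.0, 1.51 and 283 FPKM by the series-wide table, each above TAM-WT replicate 1 (25.5, 1.38 and 229 FPKM), so that the groups overlapped. With these values filled in, a fit made for this list after seeing the data, the adjusted p from edgeR were 0.0356, 0.0705 and 0.0580, and 1 of the 16 passed. Summed over the 15 with a value for every library, which for TAM-KO replicate 1 came from the series-wide table in 13 of 15, their level was 2063, 3576, 4854 and 3790 FPKM in TAM-WT and 2683, 1512, 1752 and 2281 FPKM in TAM-KO, in the order of the replicates. Fos was the most abundant of them, and 0 of the 16 were at or under 3 counts in the 7 complete libraries. From lowest to highest, the sums of these genes and of the chemokines placed the first 5 libraries in the same order, namely TAM-KO replicates 2 and 3, TAM-WT replicate 1, and TAM-KO replicates 4 and 1. The part of these genes in the difference of the chemokines was not tested.

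T cell and NK cell markers were read in the same libraries. Of 10 markers 7 were tested and 0 passed by edgeR, with 6 at an unadjusted p under 0.05, against 1 by DESeq2 and 5 by limma, and the median log2 fold change was 2.83. Their sum over the 7 with a value in all 8 libraries (6 of them from the series-wide table for TAM-KO replicate 1) was 19.2, 0.69, 0.99 and 0.85 FPKM in TAM-WT and 27.1, 63.0, 55.9 and 17.4 FPKM in TAM-KO, again in the order of the replicates. The 5 libraries with the lowest sums of the chemokines were thus the 5 where these 7 markers summed to at least 17.4 FPKM, TAM-WT replicate 1 included. That sum leaves out Cd4 and Klrb1c, which had no value in TAM-KO replicate 1 and were named after their values were seen. Cd4 was the 1 tested marker with a negative estimate (-0.29, SE 0.27, adjusted p = 0.507 from edgeR on 4 against 3 libraries). Klrb1c, an NK cell gene, was not tested and was between 0.05 and 0.25 FPKM in the 7 complete libraries. Gzmb, the granzyme of cytotoxic lymphocytes, was the most abundant of the list, at 6.55, 0.23, 0.47 and 0.28 FPKM in TAM-WT and 6.17, 24.0, 22.7 and 5.14 FPKM in TAM-KO. The NK cell receptor gene Ncr1 was at or under 3 counts in the 7 complete libraries, and Trac had no value. The part of these cells in the result was not tested.

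Neutrophils and platelets express some of these chemokines or their receptors, and their markers were looked at for that reason. Of 14 neutrophil markers, 6 were tested, 1 was higher in TAM-KO and 0 were lower by edgeR, against 4 that passed by DESeq2 and 1 by limma, and 4 had an unadjusted p under 0.05 by edgeR. The median log2 fold change was 0.66, and Ly6g, Camp, Ngp, Stfa2l1 and Mpo were at or under 3 counts in the 7 complete libraries. The one that passed by edgeR was S100a8, named after its values were seen, at 5.54, 2.57, 4.02 and 3.99 FPKM in TAM-WT and 73.5, 10.6, 9.13 and 15.8 FPKM in TAM-KO. The 10 markers with a value in all 8 libraries, 4 of them through the series-wide table, summed to 220 FPKM in TAM-KO replicate 1, the TAM-KO library with the highest chemokine sum, and to between 48.1 and 76.2 FPKM in the other 7. By mean FPKM over the 7 complete libraries Mmp8, a collagenase, was the most abundant of the list. It was at 17.6, 25.9, 45.7 and 32.5 FPKM in TAM-WT and 17.9, 10.9, 13.9 and 17.6 FPKM in TAM-KO. Of the 6 tested markers it was the 1 with a negative estimate (-1.22, SE 0.35, adjusted p = 0.0603 from edgeR on 4 against 3 libraries). Csf3r, the G-CSF receptor, was close to it in level, at 23.0, 13.1, 18.7 and 20.3 FPKM in TAM-WT and 33.6, 32.4, 31.9 and 24.0 FPKM in TAM-KO. Its estimate was 0.58 (SE 0.18, adjusted p = 0.0737 from edgeR on 4 against 3 libraries), and it was named after its values were seen. In the filled fit both Mmp8 (-1.15, adjusted p = 0.0492 from edgeR) and Csf3r (0.60, adjusted p = 0.0495 from edgeR) passed. Of 10 platelet and megakaryocyte markers 3 were tested and 0 passed by edgeR, with 2 at an unadjusted p under 0.05, against 1 by DESeq2 and 0 by limma. Pf4 made up nearly all of their sum, and none of the other 9 exceeded 1.25 FPKM in any library with a value. The part of either cell type in the result was not tested.

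Monocyte markers split. Of 8 tested, 3 were higher and 1 was lower in TAM-KO by edgeR, against 5 that passed by DESeq2 and 5 by limma, and 6 had an unadjusted p under 0.05 by edgeR. F13a1, the coagulation factor XIII subunit and the most abundant of the list, was at 339, 367, 533 and 325 FPKM in TAM-WT and 183, 99.4, 148 and 177 FPKM in TAM-KO (log2 fold change -1.48, SE 0.24, adjusted p = 0.0139 from edgeR). Of the 8 melanoma markers 1 was higher in TAM-KO and 0 were lower by edgeR, against 5 that passed by DESeq2 and 3 by limma. By edgeR 6 had an unadjusted p under 0.05, against 30.7% of all genes. The one that passed by edgeR was Sox10, named after its values were seen. All 8 estimates were positive, with a median log2 fold change of 0.60. These markers, 3 of them from the series-wide table for TAM-KO replicate 1, summed to 2690, 4469, 2046 and 1988 FPKM in TAM-WT and 4571, 5151, 4831 and 3882 FPKM in TAM-KO replicates 1 to 4. TAM-WT replicate 2, among the richest in the chemokines, was also the richest of its group in melanoma RNA. TAM-WT replicate 3, the richest of all in the chemokines, was at 2046 FPKM, close to the lowest of its group (1988 FPKM). The part of tumor RNA in the difference of the chemokines was not tested.

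Genes whose pattern was most like the chemokines were sought among 10370 tested genes over the 7 complete libraries, by Pearson's r with the mean of the standardised log2 CPM of the 4 tested chemokines. The 5 with the highest r were Slc49a4 (0.992), B3gnt9 (0.991), Il1a (0.987), Fosb (0.986) and Marcksl1 (0.984). Of these only Il1a passed between the groups. Slc49a4, a lysosomal membrane transporter, differed little in level, between 5.48 and 6.51 FPKM in TAM-WT and between 5.06 and 5.46 FPKM in TAM-KO. B3gnt9, a glycosyltransferase, was at 3.07, 4.41, 5.01 and 3.72 FPKM in TAM-WT and 3.54, 1.79, 2.29 and 2.85 FPKM in TAM-KO (log2 fold change -0.74, SE 0.23, adjusted p = 0.0691 from edgeR). Fosb, a subunit of AP-1, had -1.13 (SE 0.33, adjusted p = 0.0664 from edgeR on 4 against 3 libraries).

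After centring by genotype the 5 with the highest r were Slc5a3 (0.995), B3gnt9 (0.988), Clcn5 (0.988), Tomm7 (0.984) and Nfkbib (0.983). Slc5a3, the inositol transporter, was higher in TAM-KO (0.56, SE 0.08, adjusted p = 0.0101 from edgeR), opposite in sign to the estimates of the chemokines. Its likeness depended on the measure of level. With its log2(FPKM + 1) in place of log2 CPM scaled by TMM r was 0.527, and that of Tomm7 0.472, against 0.991, 0.952 and 0.987 for B3gnt9, Clcn5 and Nfkbib. These measures differ in the scaling and in the added constant at once, and neither was tested alone. Clcn5, an endosomal chloride-proton exchanger, was lower (-0.71, SE 0.13, adjusted p = 0.0237 from edgeR on 4 against 3 libraries), with TAM-WT at 14.7 ± 1.71 FPKM (SD, n = 4) against TAM-KO at 9.74 ± 0.877 FPKM (SD, n = 4). Tomm7 and Nfkbib did not pass. These correlations are descriptions over 7 libraries, chosen as the highest of many, and carry no p.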

How the data were processed

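Per the labels and the study's methods, 1 library per mouse was sequenced from sorted CD45+F4/80+ cells. The submitters' processing notes name HISAT2 2.0.4, Bowtie2 2.2.5, RSEM 1.2.12 and GRCm38.p6. The authors deposited estimated counts (expected counts per gene from RSEM, rounded here) and FPKM for each library, and a series-wide table of genes selected for differences, whose columns of fold change and p-values were not used. Of 30781 values in both kinds of table, 30780 were equal (tolerance 1e-09). That table filled 1188 of the 4214 genes missing in TAM-KO replicate 1. A broken line and 629 stray values of that library were not used.

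Counts were tested with edgeR 4.0.16 in R 4.3.3 (TMM, filterByExpr, quasi-likelihood test, Benjamini-Hochberg over all genes), on 8 libraries where all sample tables had a value and otherwise on 7, after the script was tested on simulated data. A gene passed at an adjusted p of at most 0.05. DESeq2 1.42.0 and limma 3.58.1 were alternatives, with other filters, pseudocounts (1 and 0.1), the replicate block, the filled table and each library left out. Exact permutation tests and correlations used log2(FPKM + 1) in Python 3.11.15. log2 CPM had a prior count of 2. Rounded gene starts of the deposited tables equalled RefSeq's on GRCm38.p6 for 99.2% of 15821 genes. Sequences came from RefSeq and GENCODE; 3′ UTRs of like length were between 0.8 and 1.2 times as long.

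The members and lists were chosen with earlier results of these data known. Named were the 5 chemokines, every receptor, the genes of each pathway list that passed, the most abundant gene of each marker list, Colec11, and the 5 genes most like the chemokines (mean CPM of at least 5) before and after centring. The dendritic cell (Ccr7 the most abundant), fibroblast (Col1a1), endothelial (Pecam1) and B cell (Cd79b) lists had 1 of 8, 0 of 5, 0 of 4 and 0 of 2 tested markers that passed by edgeR. One monocyte marker is not reported here by name, though counts include it. The dendritic cell marker that passed was Xcr1, higher in TAM-KO and named after its values were seen. Of the tested markers 2, 1, 1 and 1 had an unadjusted p under 0.05, and DESeq2 passed 2, 0, 1 and 0 and limma 1, 0, 0 and 0.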

Additional observations from a re-analysis of the deposited data

Results flagged for a closer look

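Among 84 groups of 4 libraries checked for the named genes, 5 held a library set apart from the other 3 by more than Dixon's critical value for the gap over the range, where chance gives about 1 in 20, or 4.2. TAM-WT replicate 3 was at 0.49 FPKM for Cxcr2 and at 101 FPKM for Zfp36l1, above the other TAM-WT libraries in both. TAM-WT replicate 1 was at 6.55 FPKM for Gzmb, against at most 0.47 FPKM in the other TAM-WT libraries. TAM-KO replicate 1 was at 35.8 FPKM for Tomm7 and at 73.5 FPKM for S100a8, above the other TAM-KO libraries in both. None of the 5 chemokines was set apart in this way in either group.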

How the results depend on the processing

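The number of genes that passed was 1218, and moved to 2253 with DESeq2, to 682 with 7 libraries for every gene (TAM-KO replicate 1 left out), to 249 with the filled table and the replicate block, and to between 77 (TAM-KO replicate 2 or 3) and 2755 (TAM-WT replicate 2) when 1 library was left out. Of the 4 tested chemokines 0 passed, against 2 with DESeq2, 1 with DESeq2 and the replicate block, and between 0 and 2 without 1 library. Over all genes DESeq2 with the replicate block passed 1651, and edgeR without TAM-WT replicate 1 passed 1160. Cxcl1 passed at -3.38 with DESeq2 (adjusted p = 0.0117), at -4.20 with DESeq2 and the replicate block (adjusted p = 0.0018) and, of the fits without 1 library (-4.54 to -2.93), in that without TAM-WT replicate 1. With its filled value the fits without 1 library gave -2.86 to -2.07 (adjusted p of 0.0634 to 0.247 from edgeR). Ppbp passed at -2.15 with DESeq2 (adjusted p = 0.0335) and, of the fits without 1 library (-2.69 to -1.30), in that without TAM-WT replicate 1. The log2 fold change of Cxcl2 was between -2.35 and -1.22 and that of Cxcl3 between -2.75 and -1.14 without 1 library, and neither passed in any alternative. The exact permutation test of Ppbp reached 0.0286 (difference -2.19) with 3 TAM-KO libraries. The causes were not tested, beyond the fewer libraries. With the filled table, added for lists after seeing the data, edgeR passed 1 immediate early gene in place of 3. It passed 2 proteases and 1 T cell or NK cell marker in place of 0. It also passed 2 melanoma markers in place of 1, and 0 dendritic cell markers in place of 1. Of the neutrophil markers 2 passed in place of 1, namely Mmp8 (lower in TAM-KO) and Csf3r (higher), while S100a8 did not pass. With log2 CPM or within genotypes all 10 correlations passed.

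Same-numbered libraries did not deviate together (correlations of -0.325, 0.02, -0.234 and 0.261 for numbers 1 to 4). Libraries of different numbers gave a similar range, from -0.303 to 0.376. These correlations cannot decide whether the numbers pair mice or share a batch, and the labels do not say. The replicate block moved the count of genes from 1218 to 1080 and passed 0 chemokines in edgeR. The fits with the block in DESeq2 or with the filled table, and the filled fits of Cxcl1 without 1 library, were chosen after seeing the data; Cxcl1 passed in 0 of the latter. Depth limits the values of Cxcl5, Cxcr1, Cxcr2 and Colec11.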
